A study of Mus musculus with 12 samples.

Results

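The FOXO transcription factors Foxo1, Foxo3 and Foxo4 and 7 genes known as their targets, Sesn1, Sesn3, Txnip, Bcl6, Pik3ip1, Ccng2 and Klf2, were followed through sorted stem and progenitor cells of mice with chronic myeloid leukemia (CML). These 10 genes were taken by name from the 46103 genes that the files list once numbered copies of a gene are summed. None of the 10 had such copies. RNA was measured in 12 libraries of 100 cells each. All cells were BCR-ABL1+ LSK cells (lineage-negative, Sca1+ and c-Kit+), the fraction that holds the CML stem cells. DP cells were G0M+CD27+ and SP cells were G0M-CD27+, both from vehicle-treated mice. IMDP and IMSP cells were the same populations from mice gavaged once a day with 40 mg/kg imatinib, which blocks the BCR-ABL1 kinase, from day 10 after transplantation. Each of the 4 groups had 3 libraries. The labels do not say whether these came from separate mice, so p values measure the spread between these libraries only.

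All groups shared 1 model. Bone marrow cells of 5FU-treated C57BL/6 mice that carry G0M, a fluorescent marker of the G0 phase built on a mutant of the cell cycle inhibitor p27, were transduced with a retrovirus for BCR-ABL1 and GFP. G0M sits in a Rosa26 allele and is switched on by Vav1-Cre, which acts in blood cells. The transduced cells were transplanted into lethally irradiated recipients together with unirradiated bone marrow cells. The disease is therefore driven by a retroviral oncogene in a mixed marrow. The labels give bone marrow and spleen as the tissue. The mice were female and 6 to 12 weeks old.

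FOXO proteins are forkhead transcription factors under the control of growth factor signaling. When phosphatidylinositol 3-kinase is active, AKT phosphorylates them, 14-3-3 proteins hold them and the exportin encoded by Xpo1 carries them out of the nucleus. When this signal is low they stay in the nucleus and switch on genes for cell cycle arrest, stress defence and feedback on the same pathway, and they are known for keeping blood stem cells, CML stem cells included. Much of this control acts on the protein, which RNA levels do not show.

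The promoter of Txnip is shown because it was the only member promoter that held the full forkhead letters GTAAACA. The 250 bases before the start of 9 members were read from RefSeq (GRCm38.p6); Foxo4 had no entry. GTAAACA on either strand occurred in 3.17% of 32851 promoters of this length. ATAAACA, found in 4.16% of them, and GTAAATA, found in 2.73%, were in none of the 9. The letters CACGNG, read on either strand as the core that MondoA and MLX bind at glucose-responsive genes, occurred in 23.5% of all promoters and in those of Foxo3, Txnip, Bcl6, Pik3ip1 and Ccng2. In the Txnip sequence below, on the plus strand at chr3:96557707-96557956 and ending just before the start of the gene, capitals mark GTAAACA at position -121 and CACGNG at positions -160, -85, -74 and -52, each counted to its first base from the start. No motif overlaps another.
Txnip: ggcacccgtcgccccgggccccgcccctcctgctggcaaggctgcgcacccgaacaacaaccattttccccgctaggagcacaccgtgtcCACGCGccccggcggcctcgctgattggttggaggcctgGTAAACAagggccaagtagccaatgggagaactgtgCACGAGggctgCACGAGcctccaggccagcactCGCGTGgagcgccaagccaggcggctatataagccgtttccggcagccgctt
These matches describe letters only and no binding was measured.

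Expression was deposited as RPKM, reads per kb of transcript and per 1 M reads, which sets levels of different genes side by side per length. The length inferred behind the RPKM differed from the summed annotated exons. It was 2158 against 15269 bases for Sesn3, 5552 against 8665 for Foxo1, 6838 against 7571 for Foxo3 and 5033 against 3485 for Foxo4. The order of levels between genes and the shares of the 3 factors rest on these lengths. The total behind the RPKM was inferred from the lengths of 928 genes with a single annotated transcript. Of these genes 27.2% lay within 0.5% of the most common estimate. On this estimate the total came to between 11.37 and 20.57 M reads per library. Of these reads 25.9% to 37.1% fell on the listed features, with the lowest share in IMDP cells. The sort was visible in Mki67, a proliferation gene, which was low in G0M+ cells (14.7 ± 5.7 RPKM in DP and 8.16 ± 1.67 in IMDP, SD, n = 3) and high in G0M- cells (54.2 ± 3.42 in SP and 61.1 ± 8.39 in IMSP). The sorting markers Kit and Cd27 were present in every group, at mean levels of 18.7 to 33.2 RPKM and 13.7 to 17.4 RPKM, respectively, and Ly6a, which encodes Sca1, averaged 4.55 to 19 RPKM. Cdkn1b, the p27 gene on which G0M is built, averaged 8.02 RPKM in DP and 8.01 in SP cells, and 6.66 in IMDP and 7.55 in IMSP cells (averaged log2 fold change -0.08, SE 0.16, adjusted p = 0.73 in limma as described below). Some summed markers of other cells differed with the G0M sort, in both directions. The summed level of 6 mast cell and basophil genes was 62.4 to 268 RPKM in DP and 13.1 to 156 in IMDP cells, against 7.31 to 15 in SP and 5.59 to 18.6 in IMSP cells. Among these genes Cma1 was at 0 in all SP and IMSP libraries and Prss34 in all IMSP libraries. The 6 macrophage genes summed to 1.39 to 9.95 RPKM in DP and 5.32 to 8.82 in IMDP cells, and to at most 1.64 in SP and 1.75 in IMSP cells, where C1qa, C1qb, C1qc and Vsig4 were at 0. The 6 neutrophil genes, with Mpo and Elane as the most abundant, were lower in G0M+ cells under imatinib without overlap and overlapped under vehicle, with summed levels of 45.6 to 1055 RPKM in DP and 49.9 to 203 in IMDP cells against 284 to 2007 in SP and 370 to 1604 in IMSP cells. The 6 megakaryocyte genes overlapped more, at 28 to 125 RPKM in DP and 11.8 to 97.3 in IMDP cells against 11.6 to 41.5 in SP and 6.91 to 44.7 in IMSP cells, and the 6 erythroid genes ranged from 0.744 to 264 RPKM in G0M+ and from 0.37 to 22.7 in G0M- libraries. Whether these markers have a part in the member values was not tested. In such pooled cells, fewer cells of a type and less RNA per cell cannot be told apart.

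Levels of the 10 genes spread over a wide range, and Txnip and Foxo3 stood at the top. Txnip, which encodes an inhibitor of thioredoxin and of glucose uptake, had a median of 15.3 RPKM over the 12 libraries (9.83 to 25.6), and Foxo3 one of 13.8 RPKM (8.94 to 22). These 2 ranges overlapped almost fully, so their order is not set. Below them came Sesn1 (median 6.59 RPKM), Ccng2 (5.71), Pik3ip1 (4.19), Sesn3 (2.62), Foxo4 (2) and Klf2 (1.96). The order of neighbours in this row is not set either, since each range overlapped the next. Foxo1 had a median of 0.851 RPKM and Bcl6, a repressor known from germinal centre B cells and from CML stem cells, of 0.488 RPKM. Genes were tested with limma on log2(RPKM + 0.1) if they reached 1 RPKM in at least 3 libraries. Among the members, 9 of 10 did so and Bcl6 did not.

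**Figure D1:**
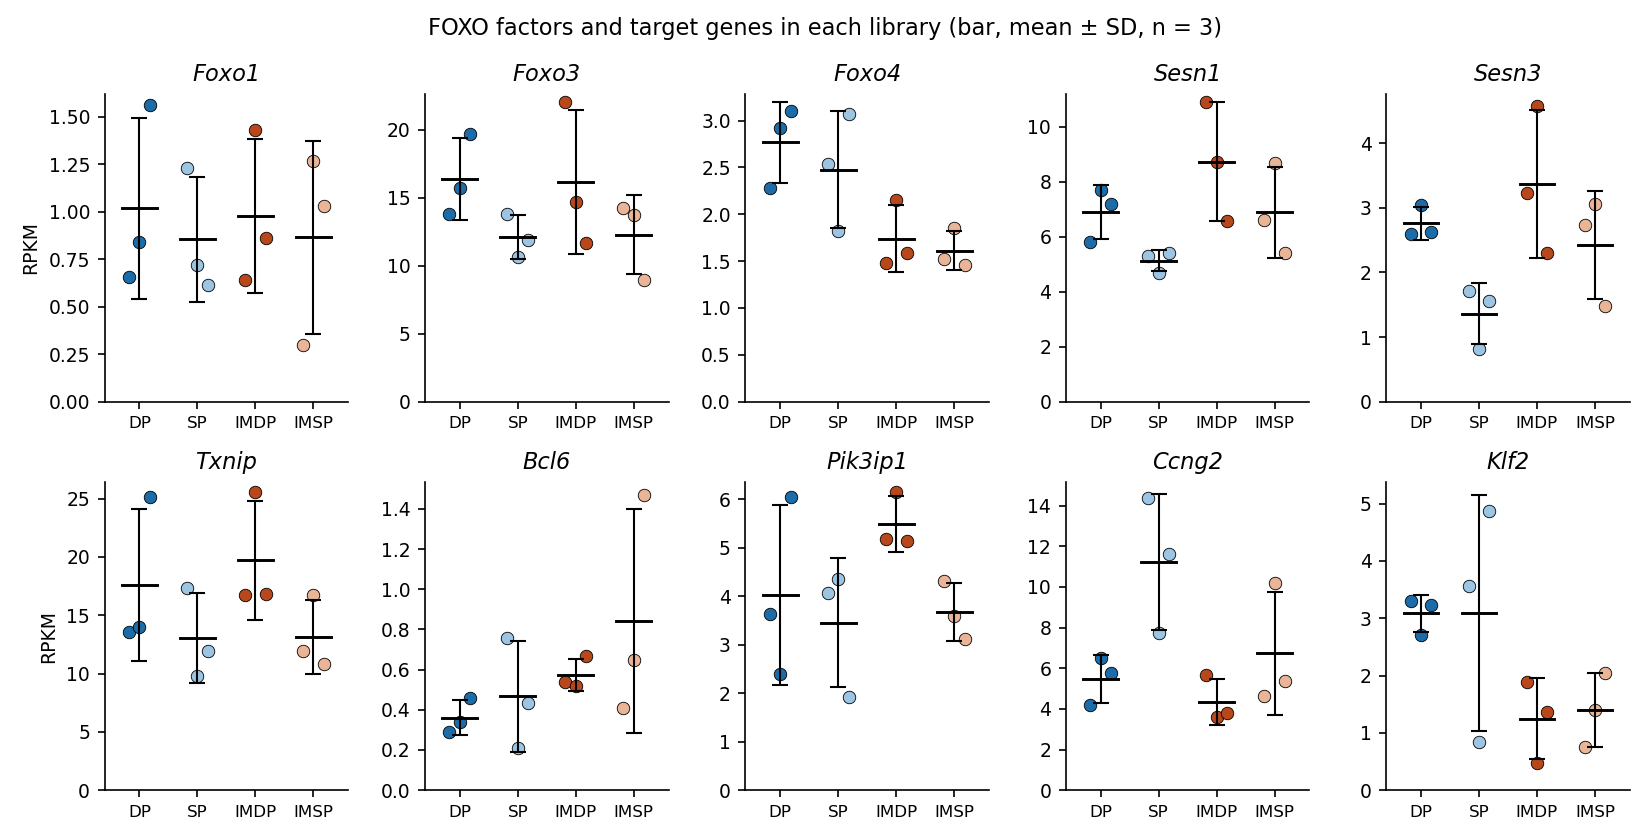
RPKM of each of the 10 genes (vertical axes start at 0) in the 12 libraries, with points for libraries and bars for the mean ± SD of the 3 libraries of DP, SP, IMDP and IMSP cells. Sesn3 was lowest and Ccng2 highest in SP cells, Foxo4 and Klf2 had lower means in both imatinib groups, and Klf2 in SP cells ranged from 0.844 to 4.87 RPKM.

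The factors themselves were compared first. Foxo3 lies on the minus strand of chromosome 10 (42181841 to 42276755, GRCm38). It was at 13.8, 15.7 and 19.7 RPKM in DP cells and at 13.8, 10.6 and 11.9 RPKM in SP cells. In IMDP cells it was at 22, 14.7 and 11.7 RPKM, and in IMSP cells at 14.2, 13.7 and 8.94 RPKM. The G0M+ means were the higher ones under both treatments, and the libraries of the groups overlapped. The log2 fold change of G0M+ against G0M- cells, averaged over treatments, was 0.40 (SE 0.17, adjusted p = 0.103 in limma, Benjamini-Hochberg over 10072 genes). Between imatinib and vehicle it was -0.03, with a 95% interval from -0.41 to 0.35.

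Foxo4, on chromosome X (101254528 to 101260873), had lower means in the imatinib groups. Its level was 2.28, 2.92 and 3.1 RPKM in DP cells and 1.48, 2.15 and 1.59 RPKM in IMDP cells, and these libraries did not overlap. It was at 2.54, 1.82 and 3.07 RPKM in SP cells and at 1.52, 1.85 and 1.46 RPKM in IMSP cells, where IMSP replicate 2 stood just above SP replicate 2. The log2 fold change of imatinib against vehicle was -0.61 (SE 0.16) and missed the threshold after adjustment over all genes (adjusted p = 0.0876). All imatinib libraries carry lower library numbers in the labels than all vehicle libraries, so treatment and library order cannot be told apart. Foxo1, on chromosome 3 (52268336 to 52353221), rested on 29 to 141 reads per library, and its group means of 0.857 to 1.02 RPKM differed by less than the SD within groups.

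Put as shares of the summed RPKM of the 3 factors, Foxo3 made up 81.4 ± 0.963% in DP and 78.5 ± 2.14% in SP cells (SD, n = 3). With imatinib it made up 84.8 ± 5.72% in IMDP and 82.8 ± 5.34% in IMSP cells. The share of Foxo4 was 12.7% to 15% in DP and 13.9% to 19.7% in SP cells, and 6.11% to 11.8% in IMDP and 9.48% to 12.8% in IMSP cells. IMSP replicate 3 was the only imatinib library that overlapped the vehicle libraries. The mean Foxo4 share was 10.4 ± 2.36% over the 6 imatinib libraries and 14.9 ± 2.48% over the 6 vehicle libraries, a difference of -4.49 percentage points (exact permutation test, two-sided, p = 0.00433, adjusted p = 0.026 over 6 share tests). This test takes the 12 libraries as independent, although libraries with neighbouring numbers, always of 1 treatment, deviated together, as given below. Over the means of these pairs the Foxo4 share was 7.8%, 11.4% and 12% with imatinib and 13.6%, 13.7% and 17.3% with vehicle, which did not overlap, and the exact two-sided p over 3 against 3 pairs was 0.1, the smallest this design allows. The call is therefore lost with pairs as the unit, and the limma p values for imatinib against vehicle also treat libraries as independent. This share depends on Foxo3 and Foxo1 as well as on Foxo4. The other 5 share tests had adjusted p from 0.403 to 0.641 by the same exact test.

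**Figure D2:**
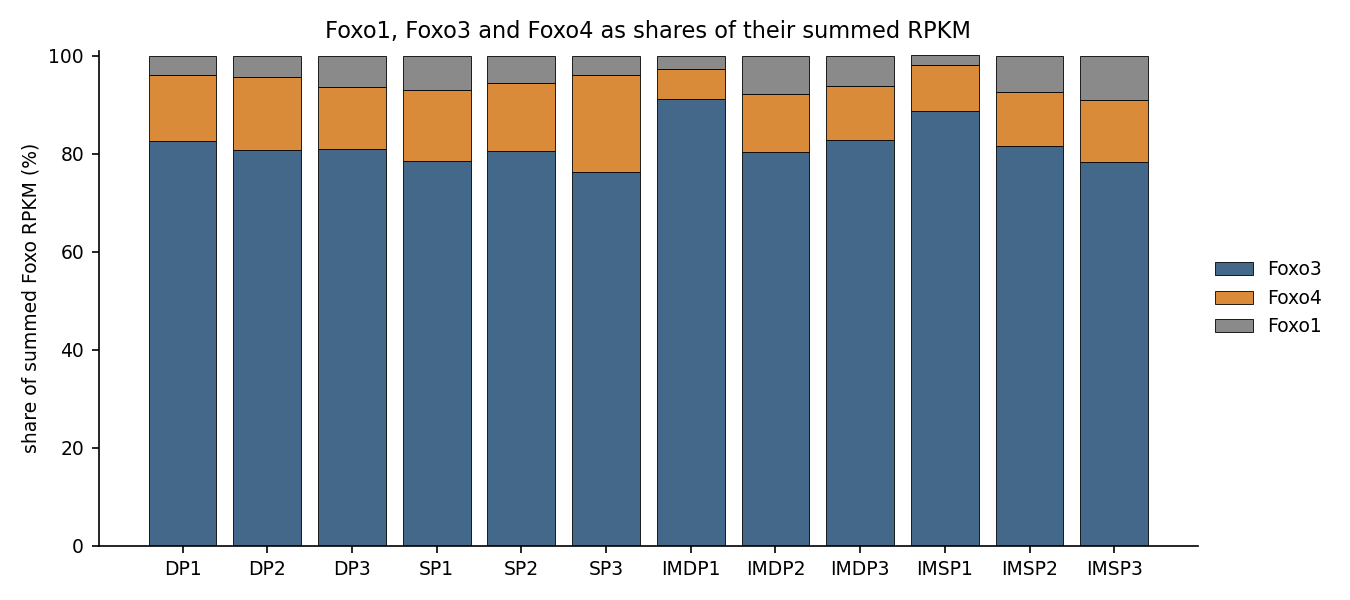
Stacked bars of Foxo3, Foxo4 and Foxo1 as percent of their summed RPKM in each library. The Foxo4 segment averaged 14.9% over the vehicle libraries (DP, SP) and 10.4% over the imatinib libraries (IMDP, IMSP), and Foxo3 filled most of every bar.

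Among the targets, the sestrins had higher means in G0M+ cells under both treatments. Sestrins are stress proteins that restrain mTORC1 through the GATOR complexes. Sesn3, on chromosome 9 (14275067 to 14333101), was at 2.6, 3.05 and 2.63 RPKM in DP cells and at 1.71, 0.82 and 1.55 RPKM in SP cells, with no overlap. It was at 3.23, 4.58 and 2.3 RPKM in IMDP cells and at 2.74, 3.06 and 1.48 RPKM in IMSP cells, which overlapped. Averaged over treatments, Sesn3 was higher in G0M+ cells by 0.75 on the log2 scale (SE 0.23, adjusted p = 0.0356). This call rests on 30 to 147 reads per library and was lost without any 1 of 7 libraries. These were DP replicates 2 and 3, SP replicate 2, IMDP replicates 1 and 2, and IMSP replicates 1 and 3, and the adjusted p then lay between 0.0512 and 0.0862. Sesn1, on chromosome 10 (41809935 to 41908424), was at 5.81, 7.69 and 7.19 RPKM in DP cells and at 5.3, 4.68 and 5.4 RPKM in SP cells. It was at 10.9, 8.72 and 6.58 RPKM in IMDP cells and at 6.61, 8.67 and 5.4 RPKM in IMSP cells. DP and SP cells did not overlap, whereas IMDP and IMSP cells did, and the averaged log2 difference was 0.37 (SE 0.15, adjusted p = 0.0809).

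Ccng2 went the other way. It encodes cyclin G2, an unusual cyclin that is known for slowing the cell cycle, and lies on chromosome 5 (93267257 to 93276231). It was at 4.17, 6.48 and 5.77 RPKM in DP cells and at 14.4, 7.71 and 11.6 RPKM in SP cells, with no overlap. It was at 5.65, 3.58 and 3.81 RPKM in IMDP cells and at 4.65, 10.2 and 5.35 RPKM in IMSP cells, so that the imatinib groups overlapped. Averaged over treatments Ccng2 was lower in G0M+ cells, with a log2 fold change of -0.78 (SE 0.22, adjusted p = 0.0249). Without SP replicate 1, IMDP replicate 2 or IMDP replicate 3 the adjusted p was 0.0587, 0.0587 and 0.0532. By limma-voom on reads recovered from the RPKM, Ccng2 was at -0.58 (SE 0.24, adjusted p = 0.0903), so the call was lost there too.

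Txnip and Pik3ip1 did not overlap between IMDP and IMSP cells, and neither did 39% of all tested genes. Pik3ip1 encodes a membrane protein that inhibits phosphatidylinositol 3-kinase. Txnip, on chromosome 3 (96557957 to 96561883), was at 16.7, 25.6 and 16.8 RPKM in IMDP cells and at 11.9, 16.7 and 10.8 RPKM in IMSP cells. The highest IMSP library lay just under the lowest IMDP library. Under vehicle Txnip was at 13.6, 14 and 25.1 RPKM in DP cells and at 17.3, 9.83 and 11.9 RPKM in SP cells. Pik3ip1, on chromosome 11 (3330401 to 3342971), was at 5.18, 6.15 and 5.14 RPKM in IMDP cells and at 4.31, 3.6 and 3.11 RPKM in IMSP cells, again with no overlap. Under vehicle it was at 3.64, 2.4 and 6.06 RPKM in DP cells and at 4.08, 4.36 and 1.93 RPKM in SP cells, where the ranges overlapped widely. The log2 fold changes of IMDP against IMSP were 0.58 for Txnip (adjusted p = 0.155) and 0.57 for Pik3ip1 (adjusted p = 0.22). The interaction of G0M and treatment had an adjusted p of 0.911 for Txnip and 0.804 for Pik3ip1, so a difference between treatments was not shown.

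Klf2, a zinc finger factor known for quiescence and trafficking of lymphocytes and for the endothelium, had the largest difference with imatinib among the members. It lies on chromosome 8 (72319033 to 72321656) and was at 3.3, 2.71 and 3.24 RPKM in DP cells and at 1.88, 0.481 and 1.37 RPKM in IMDP cells. These libraries did not overlap. It was at 3.56, 0.844 and 4.87 RPKM in SP cells and at 0.752, 1.4 and 2.04 RPKM in IMSP cells, where SP replicate 2 fell among the imatinib libraries. The averaged log2 fold change was -1.15 (SE 0.42, adjusted p = 0.181), with 13 to 133 reads per library behind it. The 6 endothelial genes summed to 22.3 to 31.8 RPKM in DP and 24.7 to 36.5 in IMDP cells, and to 14 to 21.8 in SP and 16.8 to 27.3 in IMSP cells. Most of this was Pecam1 (group means of 9.59 to 14.2 RPKM) and Tie1 (6.56 to 12.1), while Cdh5 averaged at most 0.0325 and Kdr at most 0.385 RPKM. Of the 6 B cell genes, which summed to 1.38 to 4.13 RPKM, Ms4a1, Pax5 and Ebf1 were at 0 in all 12 libraries, and Cd79b made up most of the sum. The 6 T cell genes summed to 1.26 to 8.72 RPKM, most of it Lck (group means of 2.8 to 4.6 RPKM). Cd3e was above 0 in 2 libraries, Cd3d in 11 and Cd8a in 10. The part of these cells in the Klf2 values was not tested. Bcl6, on chromosome 16 (23965052 to 23988852), rested on 19 to 105 reads. It ranged from 0.288 to 0.458 RPKM in DP and from 0.211 to 0.759 in SP cells. The IMDP libraries held 0.519 to 0.667 RPKM and the IMSP libraries 0.407 to 1.47 RPKM. The log2 fold change with imatinib was 0.62 (SE 0.33, adjusted p = 0.423) when no filter was set.

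Counted over the members, 2 of 9 passed an adjusted p of 0.05 between G0M+ and G0M- cells averaged over treatments, where 26.3% of all tested genes did. This share of the members is near the background. Their median log2 fold change was 0.37, and that of all tested genes was -0.13. Of the 9 members, 8 were on the positive side, as were 36.6% of all genes. Within 1 treatment, 0 of 9 passed in DP against SP cells (2.26% of all genes) and 0 of 9 in IMDP against IMSP cells (25.6%). Sesn3, Sesn1 and Ccng2 did not overlap between DP and SP cells, as was the case for 22.4% of all genes, and Txnip and Pik3ip1 did not overlap between IMDP and IMSP cells, as was the case for 39.0%. At an unadjusted p of 0.05, 2 of 9 and 0 of 9 members passed in these 2 comparisons, beside 1328 and 3999 of the 10072 genes. By limma-voom on the reads recovered from the RPKM, which scales to the reads on listed features, 0 and 1 of 9 members passed. The latter was Sesn1, and of the 10072 genes 290 and 1570 passed. For imatinib against vehicle, 0 of 9 members passed in IMDP against DP (0.367% of all genes), in IMSP against SP (0%) and in the average (0.854%), and 0 of 9 for the interaction (0%). The counts at an unadjusted p of 0.05 were 2, 3, 4 and 0 of 9 members, beside 2061, 845, 1811 and 937 of the 10072 genes. By limma-voom 0 of 9 members were called in each, beside 11, 0, 166 and 0 of the 10072 genes. Foxo4 and Klf2 were the tested members that did not overlap between IMDP and DP cells, against 23.6% of all tested genes, and 0 of 9 did not overlap between IMSP and SP cells (13.8%). The untested Bcl6 did not overlap between IMDP and DP cells either. With both treatments or both populations pooled, every tested member overlapped, whereas 8.21% of all genes did not overlap by G0M and 1.12% by treatment.

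**Figure D3:**
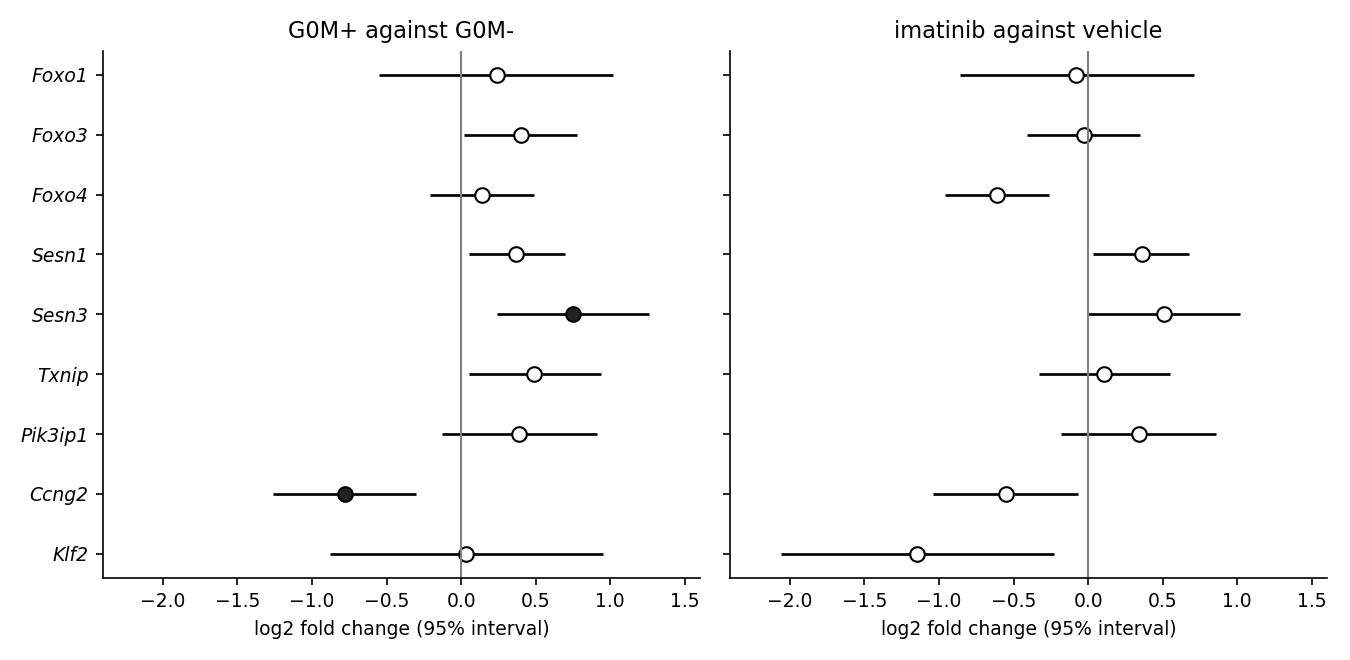
Log2 fold change with its 95% interval for the 9 tested members, for G0M+ against G0M- cells averaged over treatments (left) and for imatinib against vehicle averaged over populations (right). Filled points, Sesn3 at 0.75 and Ccng2 at -0.78 on the left, passed the adjusted p of 0.05, and Klf2 has the widest interval.

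Part of the spread was shared between libraries with neighbouring numbers. In the sample descriptions the libraries are numbered so that each consecutive pair holds 1 G0M+ and 1 G0M- library of the same treatment. What the numbers stand for is not stated. Libraries of a pair deviated from their group means together, with correlations across genes of 0.43 to 0.65 in the 6 pairs. With these pairs as a block, 6 of 9 members passed between G0M+ and G0M- cells averaged over treatments, beside 46.9% of all tested genes. The SE of Txnip went from 0.20 to 0.07 and its adjusted p was 0.000916. Foxo3 (adjusted p = 0.00474), Sesn1 (0.015) and Pik3ip1 (0.0295) were called higher beside Sesn3 (0.00262), and Ccng2 was called lower (0.00884), all in limma with the block. Under vehicle the block gave 3 of 9, beside 9.73% of all genes, with adjusted p of 0.0153 for Sesn3, 0.041 for Txnip and 0.0477 for Ccng2. Under imatinib it gave 3 of 9, beside 44.1% of all genes, with adjusted p of 0.0025 for Txnip, 0.032 for Foxo3 and 0.0259 for Pik3ip1.

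Within the pairs, 4 members were higher in the G0M+ library all 6 times, and of all tested genes 11.3% were. Txnip was the most even, with differences of 0.23 to 0.63 on the log2(RPKM + 0.1) scale. Foxo3 differed by 0.09 to 0.63, Sesn1 by 0.01 to 0.72 and Sesn3 by 0.23 to 1.56. Pik3ip1 was higher in 5 of 6 pairs and Ccng2 lower in 5 of 6. Klf2 had no steady direction, with pair differences from -1.37 to 1.85.

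**Figure D4:**
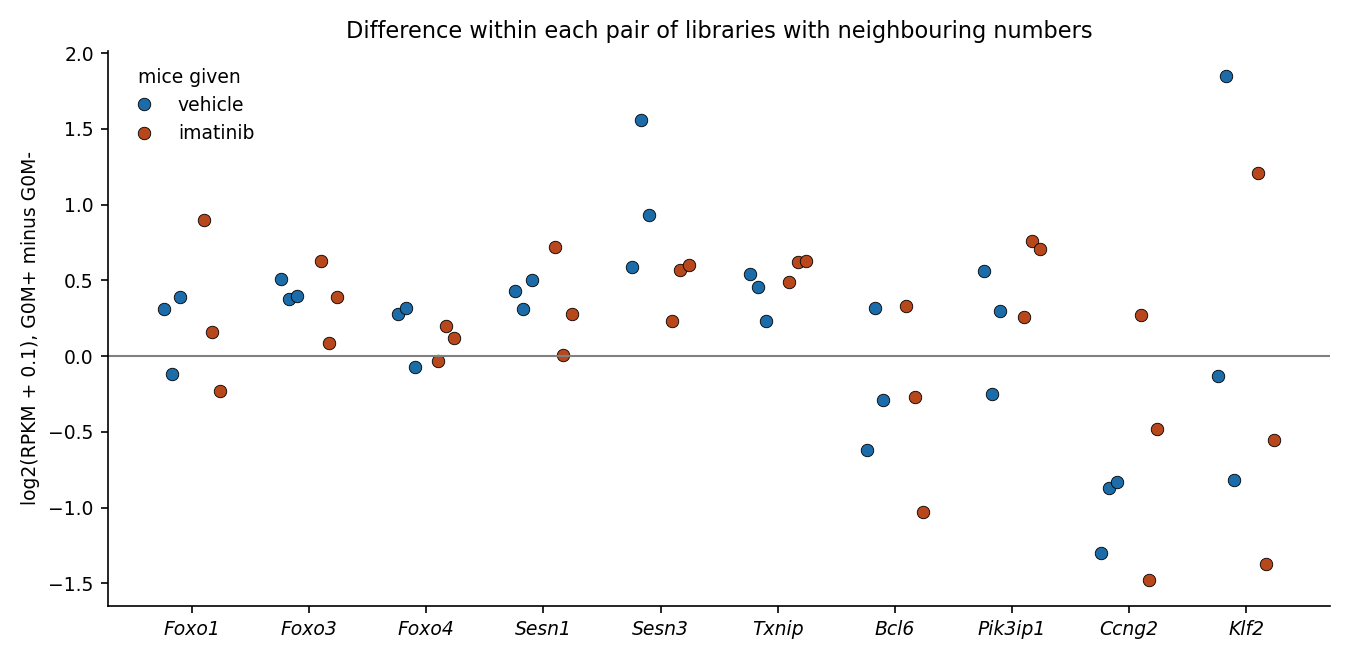
Difference in log2(RPKM + 0.1) between the G0M+ and the G0M- library of each pair of neighbouring library numbers, with 3 vehicle pairs (blue) and 3 imatinib pairs (red) for each gene. All 6 points of Foxo3, Sesn1, Sesn3 and Txnip lie above 0, and those of Klf2 spread from -1.37 to 1.85.

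Scaling bears on these counts, because the median gene was lower in G0M+ cells by 0.13 on the log2 scale on average, and by 0.25 in IMDP against IMSP cells. With each library scaled to its median gene, 4 of 9 members passed in the averaged comparison, beside 2379 of 10072 genes. The 4 members were Foxo3 (0.56, adjusted p = 0.0222), Sesn1 (0.53, 0.0179), Sesn3 (0.90, 0.0172) and Txnip (0.65, 0.0426), and Ccng2 was at -0.62 (0.0555). In the averaged comparison the directions of the 9 members were the same on both scales. In IMDP against IMSP cells Klf2 was at -0.24, and at 0.04 on the median scale.

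The wider pathway was described by 4 lists. Upstream inputs to FOXO proteins (kinases, phosphatases, acetylation, export and ubiquitin genes) gave 0 higher and 6 lower among 36 tested genes in G0M+ cells, with a median of -0.15 against -0.13 for all genes. Of all tested genes 5.32% were called higher and 21% lower, so this count is near the background. Without single libraries it went from 3 lower (without DP replicate 2, DP replicate 3 or IMSP replicate 1) to 9 lower (without IMDP replicate 1). Xpo1, the nuclear exportin, fell most, from 19 ± 1.23 RPKM in SP to 13.6 ± 2.31 in DP cells and from 20.7 ± 1.64 in IMSP to 9.87 ± 1.62 in IMDP cells (averaged log2 fold change -0.78, SE 0.11, adjusted p = 0.000608). Akt1 (-0.40, adjusted p = 0.00815), the methyltransferase gene Prmt1 (-0.54, 0.0131) and the 14-3-3 gene Ywhah (-0.40, 0.0233) were also lower. On the median scale Xpo1 and Prmt1 kept their calls, Akt1 (adjusted p = 0.0505) and Ywhah (0.0579) did not, and the list gave 3 higher and 2 lower, where 11.2% of all genes were called higher and 12.4% lower. With the pairs as a block it gave 2 higher and 11 lower, where 13.4% of all genes were called higher and 33.4% lower.

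Other known FOXO targets gave 6 higher and 1 lower among the 23 of 30 that could be tested, with a median of 0.22, beside 5.32% of all genes called higher and 21% lower. Without single libraries it gave 4 to 6 higher, the lowest without DP replicate 3, and 1 to 2 lower, with 2 without IMDP replicate 1 or IMSP replicate 2. Trp53inp1, a stress gene of the p53 and autophagy pathways, rose by 1.29 on the log2 scale (SE 0.28, adjusted p = 0.00775). Irs2, the insulin receptor substrate, rose by 1.06 (SE 0.21, 0.00538), from 1.84 ± 0.275 RPKM in SP to 4.47 ± 0.825 in DP cells and from 1.3 ± 0.541 in IMSP to 2.4 ± 0.585 in IMDP cells. Btg1, an antiproliferative gene, rose by 0.98 (SE 0.18, 0.00322), and Tnfsf10, which encodes the death ligand TRAIL, by 0.80 (SE 0.16, 0.00589). The autophagy genes Gabarapl1 and Map1lc3b were the other two that rose. Cdkn2d, the inhibitor p19 of CDK4 and CDK6, was lower, with a log2 fold change of -0.77 (SE 0.18, adjusted p = 0.0114). With the pairs as a block the list gave 11 higher and 4 lower (13.4% and 33.4% of all genes), and on the median scale 8 higher and 1 lower (11.2% and 12.4%).

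Partners of the member proteins gave 0 higher and 5 lower among 16 tested, with a median of -0.18, beside 5.32% of all genes called higher and 21% lower. Without single libraries the count went from 3 lower (without DP replicate 3, IMDP replicate 3 or IMSP replicate 1) to 7 lower (without IMDP replicate 1). The 5 were the GATOR2 genes Seh1l (-0.50, adjusted p = 0.00917) and Sec13 (-0.70, 0.01), the phosphatase gene Ppp2ca (-0.39, 0.0113), Txn1, which encodes the thioredoxin that TXNIP binds (-0.49, 0.0223), and Mlx, which encodes the partner of MondoA (-0.85, 0.0267). Seh1l, Sec13 and Txn1 kept their calls on the median scale, while Ppp2ca (adjusted p = 0.0834) and Mlx (0.0517) did not. On that scale the list gave 1 higher and 3 lower, where 11.2% of all genes were called higher and 12.4% lower. Relatives of the members (Foxo6, Sesn2, Arrdc3, Arrdc4, Bcl6b, Ccng1, Klf4 and Klf6) gave 0 calls among 6 tested in limma and by limma-voom. In these 2 tests 2648 and 2507 of 10072 genes were called. With the block the relatives gave 2 higher and 1 lower, where 13.4% of all genes were called higher and 33.4% lower. Without single libraries the relatives gave 0 to 1 higher (1 without IMSP replicate 2) and 0 to 1 lower (1 without DP replicate 3). For imatinib against vehicle averaged over populations, none of the 81 tested genes of the 4 lists passed.

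**Figure D5:**
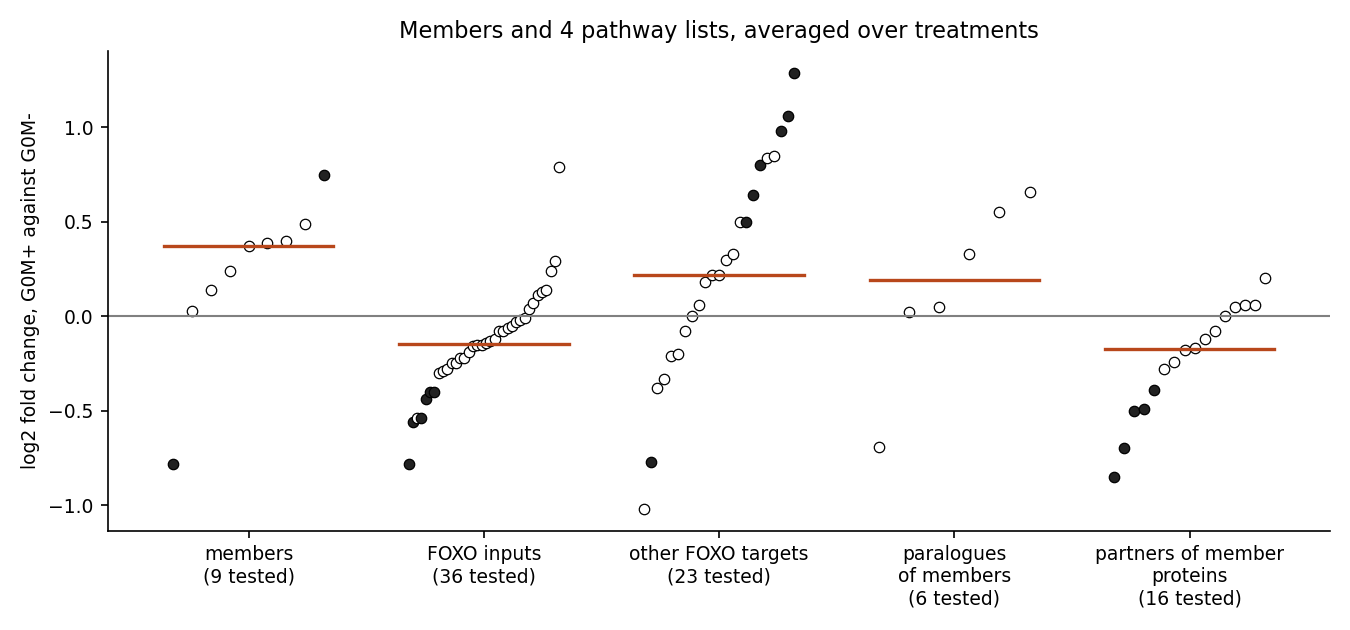
Log2 fold change of G0M+ against G0M- cells averaged over treatments for the 9 tested members and the tested genes of 4 lists, each list sorted by value, with filled points for an adjusted p under 0.05 and a red line at the median. The medians are 0.37 for the members, -0.15 for the inputs, 0.22 for other targets, 0.19 for relatives and -0.18 for partners.

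Correlations between members over the 12 libraries, on the log2 scale, are given as a description, since libraries share treatment and population. Sesn1 and Sesn3 had a Pearson correlation of 0.84, Foxo3 one of 0.74 with Sesn1 and 0.65 with Sesn3, and Txnip one of 0.70 with Sesn3. Foxo4 correlated with Klf2 at 0.60 and with Ccng2 at 0.39. Among all tested genes, those most like Sesn3 were Slc2a9 and Prrg4 (both 0.94), those most like Txnip were Sgms1 (0.95) and Syne2 (0.94), and those most like Foxo3 were Tmem135 (0.92) and Pfkm (0.91). For Foxo4 they were Nfkb2 and Mdm2 (both 0.95), for Sesn1 Trim68 (0.95) and Cand2 (0.93), and for Foxo1 Megf11 (0.93) and Pp2d1 (0.88). For Pik3ip1 they were Smpdl3a and Igf1r (both 0.91), for Ccng2 Akirin2 (0.92) and Zfx (0.89), and for Klf2 Tnf (0.86) and Wdr45b (0.84).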

How the data were processed

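After sequencing, reads were mapped by the authors to GRCm38 (mm10), and RPKM per feature were deposited. Their methods name CLC Genomics Workbench and their reporting summary names HISAT2 and featureCounts. Whether a further normalization is part of the deposited RPKM is not stated. RPKM values stand on steps of single reads, from which reads were recovered for all 17735 features above 0. PCR copies were not marked. Numbered copies were summed. A gene had to reach 1 RPKM in 3 or more libraries, which 10072 did. The test was limma 3.58.1 (trend) under R 4.3.3 on log2(RPKM + 0.1), which understates changes of low genes, with 4 group means and Benjamini-Hochberg adjustment at 0.05. Shares were tested with exact permutations in Python 3.11.15. The scripts were tested on simulated data.

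The named genes are the members, 5 sort checks, for each list the 4 smallest adjusted p past 0.05, and the 2 nearest patterns per tested member; Gabarapl1, Map1lc3b, Cdkn2d, Mlx and the genes named from marker lists were named after their values were seen. Members and lists were chosen with earlier results of these data known. Alternatives changed the filter, pseudocount, scaling, block, groups fitted and library left out; limma-voom on recovered reads and pair means of the Foxo shares were chosen after seeing the data. Replicate numbers from the titles did not pair DP and SP libraries (correlations -0.30 to -0.10) but did pair IMDP and IMSP libraries (0.43 to 0.65), where they coincide with neighbouring library numbers. Positions come from GENCODE M21.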

Additional observations from a re-analysis of the deposited data

How the results depend on the processing

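Of the member results, the count of calls between G0M+ and G0M- cells averaged over treatments moved most. It was 2 of 9 (2648 of 10072 genes), and 1 of 10 without a filter on low values (2321 of 16776 genes). It was 4 of 9 with median scaling (2379 of 10072 genes) and 4 of 9 with limma-voom on recovered reads (2507). With neighbouring library numbers as a block it was 6 of 9 (4721). Without single libraries it was 0 to 3 of 9, with 0 without IMDP replicate 2 (1836 of 9949 genes). The count over all genes then ranged from 1585 (without DP replicate 3) to 3046 (without IMDP replicate 1). With the same block the member count rose from 0 to 3 in DP against SP and from 0 to 3 in IMDP against IMSP, and limma-voom gave 1 in the latter. Over all 10072 genes the block raised the count from 228 to 980 and from 2581 to 4446, and limma-voom gave 1570 in the latter. With the replicate number of the titles as a replicate block the member count stayed at 2 in the average (2811 of 10072 genes) and at 0 in every other comparison. Fold changes of uncalled members changed sign without single libraries: Foxo1 was at -0.27 in IMDP against IMSP (range over libraries -0.27 to 0.62) and at 0.43 in IMSP against SP (-0.46 to 0.43) without IMSP replicate 1. Pik3ip1 in DP against SP (-0.16 to 0.52) was at -0.13 without DP replicate 3 and at -0.16 without SP replicate 3, and in IMSP against SP (-0.21 to 0.36) at -0.21 without SP replicate 3. Klf2 in DP against SP (-0.43 to 0.77) was at -0.43 without SP replicate 2. The difference in the Foxo3 share ranged from 0.774 to 4.01 percentage points between G0M+ and G0M- cells and from 2.35 to 4.95 between imatinib and vehicle, with an exact permutation p under 0.05 only without IMSP replicate 1 (p = 0.039) and without IMSP replicate 3 (p = 0.0368), respectively. That of Foxo4 with imatinib ranged from -4.96 to -3.52 without single libraries, and over means of pairs with neighbouring library numbers it was -4.49 with an exact permutation p of 0.1, the smallest that 3 against 3 pairs allow. The cause of these changes was not tested beyond the construction of each alternative. Foxo1, Bcl6, Sesn3 and Klf2 rest on few reads, down to 13 in a library; what this count, the input of 100 cells and unmarked PCR copies each add to their spread was not tested.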
